A study of Mus musculus with 24 samples.

Results

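Neutrophil transcripts are followed here through 24 bulk RNA-seq libraries of mouse brain cells, as 9 genes taken by symbol from both tables of TPM, transcripts per M (mega) transcripts. The genes are S100a8, S100a9, Retnlg and Mmp9, grouped as mature neutrophil genes, and Ngp, Camp, Ltf, Lcn2 and Mmp8, grouped as granule genes. All 9 of 9 were listed in both TPM tables, which hold 20636 genes each. All 9 also passed the filter on low values, which kept genes averaging 1 TPM or more within an age, as did 11587 genes in all at 3 months and 11792 at 17 months.

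The animals lacked both copies (HOM, homozygous knockout) or 1 copy (HET, heterozygous knockout) of 3110043O21Rik, the mouse counterpart of C9orf72, or were wild type (WT). Each genotype was sampled at 3 and at 17 months with 4 animals a group, and all were labelled C57BL/6J. Per the labels' protocols, the meninges were taken off, the brain was dissociated with papain, myelin was removed, and cells carrying CD11b were collected with magnetic beads as microglia, the resident macrophages of the brain. CD11b, the product of Itgam, is also a surface protein of neutrophils and monocytes, so the sort does not by itself remove them. How the knockout allele was built, which part of the gene is missing and the sex of the animals are not stated in the labels. In the 17-month table headers the heterozygous animals appear as hemi. Within a group and age, libraries are numbered 1 to 4 and their values listed by rising animal number in the table headers, which are not the replicate numbers of the labels.

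Neutrophils are short-lived white blood cells that form in the bone marrow and patrol the blood. Their precursors load granules in sequence: primary granules early, then specific granules, then gelatinase granules, and the messages for early granule proteins largely fade before the cell leaves the marrow. Mature cells keep high levels of S100a8 and S100a9 messages and carry receptors for bacterial products and chemokines. In the undisturbed brain neutrophils are rare in the tissue itself and are found in vessels, meninges and skull marrow.

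Among the granule genes, Ngp encodes neutrophilic granule protein, Camp the cathelicidin antimicrobial peptide and Ltf the iron-binding protein lactoferrin, all stored in specific granules. Lcn2 encodes lipocalin 2, which binds bacterial iron carriers and is also made by reactive astrocytes. Mmp8 encodes neutrophil collagenase. Among the mature genes, S100a8 and S100a9 encode the subunits of calprotectin, Retnlg encodes resistin-like gamma, and Mmp9 encodes gelatinase B, which other cells make too. On the mm10 build, Camp (chr9:109847379-109849617, minus strand), Ngp (chr9:110419747-110423012, plus strand) and Ltf (chr9:111019271-111042767, plus strand) lie in a row, with gaps of 570 and 596 kb. S100a8 (chr3:90668978-90670035, plus strand) and S100a9 (chr3:90692632-90695721, minus strand) are neighbours 22.6 kb apart. Mmp8 (chr9:7558456-7568485) and Retnlg (chr16:48872621-48874496) stand alone on the plus strand. Lcn2 (chr2:32384633-32388252, minus strand) and Mmp9 (chr2:164940780-164955850, plus strand) share a chromosome only.

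Promoter stretches are shown because the members moved together across libraries, and C/EBP factors, C/EBP epsilon in particular, are known to drive specific granule genes. A C/EBP half-site pair, searched on both strands as TTNNGCAA or TTGCNNAA within 250 bases before the RefSeq start, occurred in 6 of the 8 members that had a RefSeq promoter (GRCm38.p6), against 9.56% of 32851 promoters. Capitals mark the match, each sequence is given 5′ to 3′ on the strand of its gene, and each stretch ends before the annotated transcript.
Ngp (chr9:110419644-110419703, plus strand): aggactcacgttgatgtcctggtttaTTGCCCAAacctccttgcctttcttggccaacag
Ltf (chr9:111019191-111019250, plus strand): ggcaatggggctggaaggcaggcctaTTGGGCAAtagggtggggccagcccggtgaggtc
Mmp8 (chr9:7558384-7558428, plus strand): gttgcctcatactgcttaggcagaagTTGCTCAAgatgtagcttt
S100a9 (chr3:90695924-90695971, minus strand): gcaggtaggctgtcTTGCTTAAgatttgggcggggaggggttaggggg
Retnlg (chr16:48872358-48872395, plus strand): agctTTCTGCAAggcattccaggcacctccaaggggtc
Lcn2 held a match that lies inside an annotated transcript and is not printed, and Camp and S100a8 held none. A PU.1 core, GAGGAA or TTCCTC on either strand, occurred in 4 of the 8 (Ltf, Lcn2, Mmp8 and S100a8), against 23.3% of all promoters. These matches describe letters in a window and were not tested as binding sites.

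The targeted gene followed the labels. 3110043O21Rik stood at 0.139 ± 0.0918 TPM in HOM, 9.73 ± 1.75 in HET and 22.8 ± 2.23 in WT libraries at 3 months (SD, n = 4 each). At 17 months it stood at 0.0360 ± 0.0158 TPM in HOM, 7.20 ± 1.53 in HET and 14.9 ± 1.48 in WT libraries. HOM libraries were deeper than WT libraries at both ages, with 31.6 ± 1.48 against 24.9 ± 2.71 M alignments at 3 months and 42.4 ± 2.67 against 30.4 ± 9.15 M at 17 months (exact two-sided permutation test, p = 0.0286 each, the smallest that 4 against 4 can give, adjusted p = 0.0429 over 6 comparisons). HET libraries held 27.9 ± 1.28 M at 3 months and 34.1 ± 3.33 M at 17 months. By the same permutation test HOM libraries were also deeper than HET libraries at both ages (p = 0.0286, adjusted p = 0.0429 each). For HET against WT the adjusted permutation p was 0.103 at 3 months and 0.714 at 17 months. The sum of Y-linked transcripts marked 2 HOM, 4 HET and 1 WT libraries as male at 3 months, and 3 HOM, 0 HET and 1 WT at 17 months. Depth and sex therefore moved with genotype, and their part in the results below was not tested except where a fit with sex as a term is given.

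At 3 months every neutrophil transcript had its lowest group mean in WT libraries, but none passed the main test, limma with every library weighted equally, in any comparison. S100a8 stood at 1473, 1657, 1877 and 747 TPM in HOM libraries, at 853, 717, 1309 and 1852 TPM in HET libraries and at 957, 621, 288 and 453 TPM in WT libraries. Its 3 highest HOM libraries lay above every WT library, while the lowest HOM library lay inside the WT range. S100a9 stood at 1564, 1402, 1838 and 683 TPM in HOM libraries, at 796, 592, 1499 and 2037 TPM in HET libraries and at 999, 704, 333 and 406 TPM in WT libraries, in the same arrangement. Camp, the antimicrobial peptide gene, stood at 184, 193, 251 and 75.5 TPM in HOM libraries, at 54.1, 44.5, 216 and 309 TPM in HET libraries and at 76.7, 72.5, 23.9 and 34.1 TPM in WT libraries. For Camp, too, the lowest HOM library fell below the highest WT library, and the 2 low HET libraries lay within the WT range. Since these are bulk libraries, fewer neutrophils and less of each message per neutrophil cannot be told apart.

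Set against WT, the HOM means at 3 months corresponded to log2 changes of 0.33 to 1.78 over the 9 members, on the log2(TPM + 1) scale. Camp had the largest change, 1.78 (SE 0.62, 3.43-fold, limma adjusted p = 0.169). Ngp followed with 1.52 (SE 0.54, adjusted p = 0.172), and S100a8 had the lowest p of the 9 with a change of 1.36 (SE 0.39, 2.57-fold, unadjusted p = 0.00443, adjusted p = 0.123). Ltf, Lcn2 and S100a9 had changes of 1.31, 1.21 and 1.21. The smallest changes were those of Retnlg at 0.90, Mmp8 at 0.61 and Mmp9 at 0.33, whose 95% intervals included 0. Without WT library 3 the change of Retnlg was 0.59, and without WT library 4 that of Mmp9 was 0.19.

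None of the 9 was called at an adjusted p under 0.05, where limma called 0.0604% of all genes (7 of 11587). At an unadjusted p under 0.05, 6 of the 9 were higher in HOM libraries (Ngp, Camp, Ltf, Lcn2, S100a8 and S100a9), against 2.57% of all genes. The HOM and WT libraries overlapped for each of the 9, while for 1.78% of all genes every HOM library lay above every WT library. The median change was 1.21 over the 9 members and -0.10 over all genes tested. With limma array weights, which down-weight variable libraries, 6 of the 9 were called, along with 1836 genes in all. Because the 9 transcripts varied together, as described below, they do not amount to 9 separate observations of a genotype difference.

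In HET libraries at 3 months the group means lay between those of HOM and WT for all 9 members, and the 4 libraries split. Ltf, for example, stood at 25.5, 19.6, 66.1 and 94.2 TPM in HET libraries, against 37.3, 33.8, 11.4 and 18.3 TPM in WT libraries. A pair of HET libraries thus exceeded the whole WT range, and the other pair sat inside it. Changes against WT ran from 0.26 for Mmp9 to 1.27 for Camp (SE 0.62, adjusted p = 0.256). S100a8, at 1.06 (SE 0.39, adjusted p = 0.157), had the lowest p. Without HET library 4 the change of Camp was 0.79, that of Ngp 0.53 (0.97 with it) and that of Mmp9 0.054, and with array weights those of Camp and Ngp were 0.27 and 0.10. None of the 9 was called (0.0432% of all genes were), 2 of 9 (S100a8 and S100a9) were higher at an unadjusted p under 0.05 (2.35% of all genes), and none was without overlap (1.3% of all genes). Between HOM and HET libraries at 3 months, changes were 0.08 for Mmp9 to 0.56 for Ngp, all with 95% intervals that included 0. There limma called none of the 9, against 0.0259% of all genes, and at an unadjusted p under 0.05 none was higher, against 3.3%; array weights called 3 of the 9 and 3074 genes in all.

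**Figure D1:**
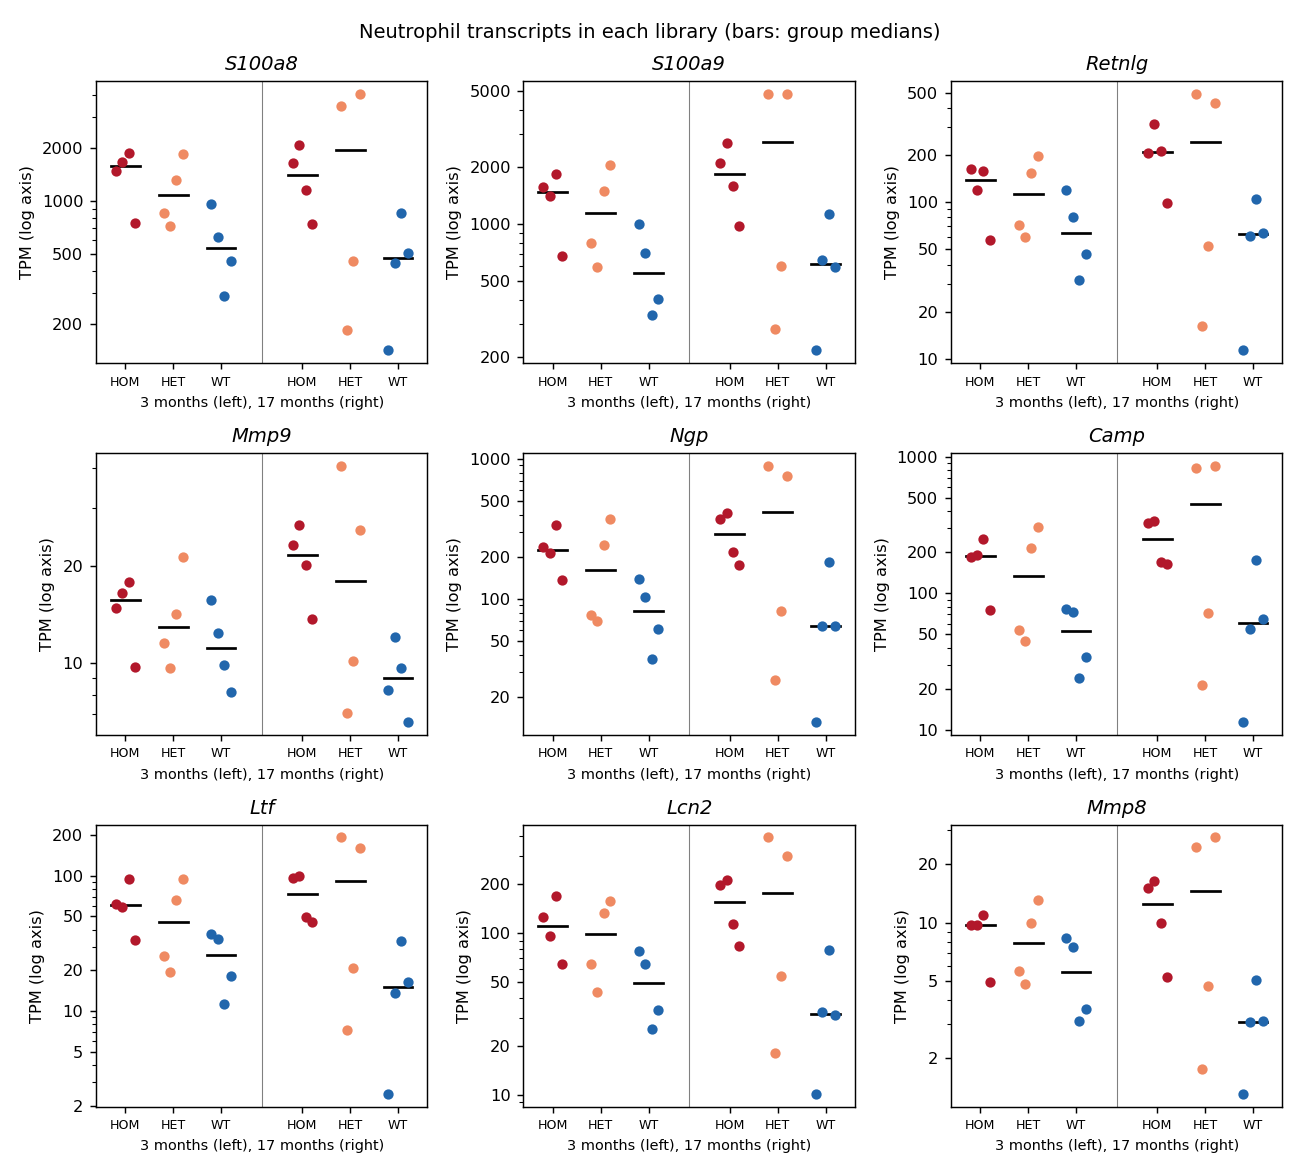
TPM of each neutrophil transcript in each library (log axis) by genotype, with the 3-month groups on the left and the 17-month groups on the right of each panel; points are animals and bars are group medians. The HET libraries at 17 months split into a high and a low pair in every panel, and 1 WT library lies lowest in 8 of the 9 panels at that age.

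The ratio of the highest to the lowest HOM library was 2.69 at 3 months and 2.72 at 17 months for S100a9. For Camp it was 3.33 and 2.06, and for Mmp8 2.21 and 3.13. At 17 months the HET libraries spread much further apart than at 3 months, as did the WT libraries for most members. S100a9 stood at 2104, 2666, 1579 and 978 TPM in HOM libraries, at 4850, 280, 600 and 4813 TPM in HET libraries and at 217, 645, 1125 and 594 TPM in WT libraries. Both the highest and the second lowest of the 12 libraries were HET. Camp stood at 330, 341, 169 and 165 TPM in HOM libraries, at 830, 21.1, 71.6 and 865 TPM in HET libraries and at 11.4, 55.0, 175 and 65.3 TPM in WT libraries. For Camp the coefficient of variation was 38.8% in HOM, 104% in HET and 90.8% in WT libraries. The HOM value was the lowest of the 3 genotypes for every member but Mmp9, with 26.4% in HOM, 74.2% in HET and 25.3% in WT libraries.

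Ltf was the member with the largest change between HOM and WT libraries at 17 months. It stood at 96.0, 99.7, 49.2 and 45.5 TPM in HOM libraries, against 2.47, 13.7, 33.0 and 16.4 TPM in WT libraries, without overlap. The change was 2.39 on the log2 scale (SE 0.91, 5.25-fold, limma adjusted p = 0.181). Lcn2, Mmp8 and Mmp9 also did not overlap between HOM and WT libraries, in that Lcn2 ran from 83.4 to 212 TPM in HOM and from 10.2 to 78.6 TPM in WT libraries. For Mmp8 the gap was narrow, 5.25 TPM in the lowest HOM library against 5.04 TPM in the highest WT library, and for Mmp9 these were 13.7 and 12.1 TPM. Those 4 of 9 stand beside 9.5% of all genes with every HOM library above every WT library.

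Changes between HOM and WT libraries at 17 months ran from 1.10 for Mmp9 to 2.39 for Ltf, with a median of 2.01 over the 9 and of 0.05 over all genes. None was called, whereas 0.712% of all genes were (84 of 11792). Ngp, Ltf, Lcn2, Mmp8 and Mmp9, 5 of the 9, were higher at an unadjusted p under 0.05, against 13% of all genes. Array weights called 3 of the 9 and 1858 genes in all, and a fit of the HOM and WT libraries alone called 1 member, Mmp9 (limma adjusted p = 0.0403). The count of all genes called in that fit is not given here, so no share can be set beside this call. The alternatives other than leaving out a library called 5 to 1858 genes in all. Leaving out WT library 1, which was lowest for 8 of the 9 members and the shallowest of all at 16.7 M alignments, lowered the change of Ltf to 1.75 and that of Camp to 1.45, against 2.16 with all libraries. With sex as a term in the fit, the changes of Ltf and Camp were 1.74 and 1.41.

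On the TPM scale the HOM means at 17 months lay below the HET means for all 9 members, by little for Mmp9 (20.9 ± 5.50 TPM in HOM and 20.9 ± 15.5 TPM in HET libraries, SD, n = 4 each). On the log scale, where low libraries count for more, the order was the reverse. Set against WT, the HET changes ran from 0.84 for Mmp9 to 1.89 for Ltf (SE 0.91, adjusted p = 0.579). Without HET library 1 the change of Ltf was 1.23 and that of Mmp9 0.43, without HET library 4 that of S100a8 was 0.71 (1.36 with it), and without HET library 2 that of Ltf was 2.74. With array weights the change of Retnlg was 0.47, against 1.31 without them. None of the 9 was called, against 0.237% of all genes, and Mmp8 alone was higher at an unadjusted p under 0.05, against 2.75% of all genes. None was without overlap, against 1.29%. Between HOM and HET libraries the changes were 0.19 for Mmp8 to 0.71 for Retnlg, with none called against 1.86% of all genes and none higher at an unadjusted p under 0.05 against 10.3%. All 9 of these differences changed sign, to between -0.75 for Camp and -0.06 for Mmp9, with sex as a term, and all 9 changed sign without HET library 2.

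Whether the genotype differences depended on age was tested as an interaction over all 24 libraries. For HOM against WT, the change at 17 months exceeded that at 3 months by 0.32 for S100a8 (SE 1.02) to 1.12 for Retnlg (SE 1.15, adjusted p = 0.600). None of the 9 was called, against 0.254% of 11436 genes. For HET against WT, the excess was 0.30 for S100a8 to 1.02 for Ltf (SE 1.12, adjusted p = 0.710), with none called against 0.691% of all genes. At an unadjusted p under 0.05 the count was likewise 0 of 9 in both, against 21.8% of all genes for HOM and 14.4% for HET. The SE exceeded the difference for all members but Mmp8 and Mmp9 in both interactions. The median over all genes was 0.16 for HOM and 0.08 for HET, so that centring each library on its median lowered the HOM values, for example that of Ngp to 0.56, against 0.74 without centring. Leaving out WT library 1 of 17 months lowered that of Ngp to 0.065 and that of Ltf to 0.44, against 1.08 with all libraries. In the HET interaction, leaving out HET library 1 of 17 months lowered Ngp to 0.092, against 0.82. The levels of the 2 ages come from tables made separately, so no test was run between them.

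**Figure D2:**
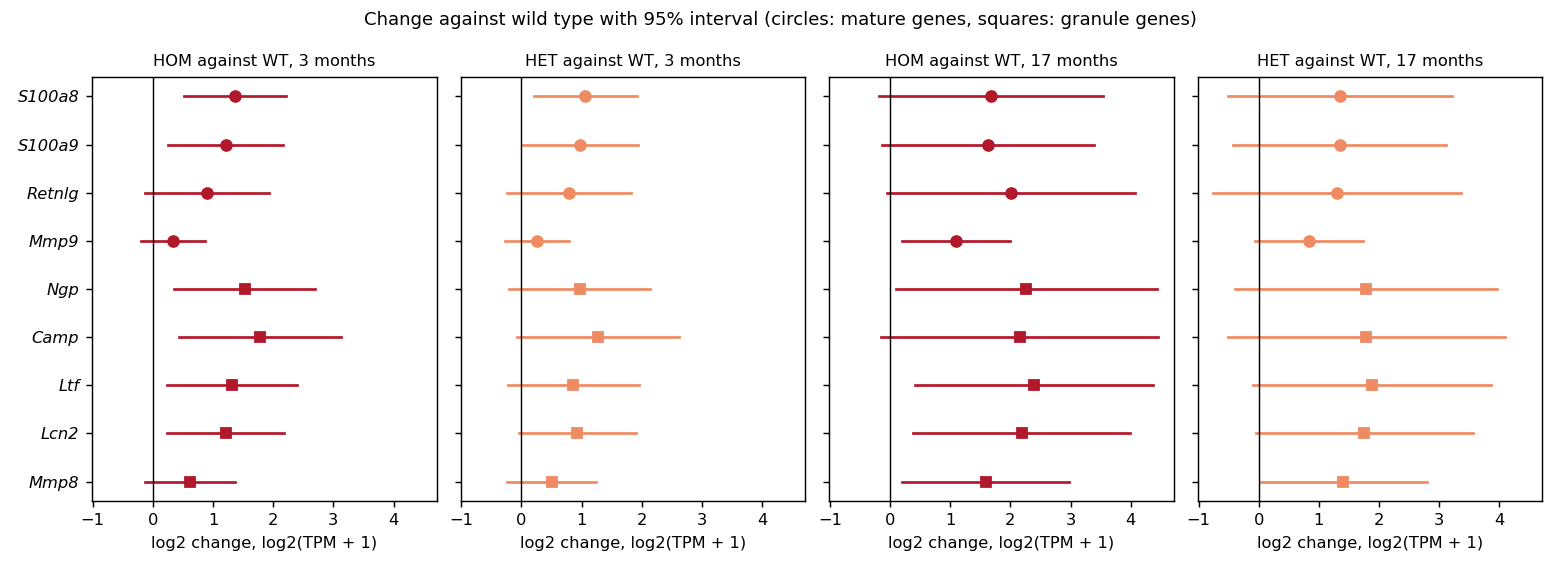
log2 change on the log2(TPM + 1) scale with its 95% interval for each neutrophil transcript, for HOM and HET against WT at 3 and 17 months; circles are mature genes and squares granule genes. Every point lies above 0, and the intervals are widest at 17 months, where that of Camp in HOM libraries runs from -0.14 to 4.46.

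The members ranked the libraries in nearly the same order. At 3 months HET library 4 ranked 1 or 2 for every member, with 0.584% of the listed TPM in the 9 transcripts, and HOM library 3 ranked 1 to 3 with 0.537%. WT library 3 had a median rank of 12 and a share of 0.0857%. At 17 months HET libraries 1 and 4 had median ranks of 1 and 2, with shares of 1.26% and 1.45%. HET library 2 ranked 11 for every member with 0.0640%, and WT library 1 had a median rank of 12 with 0.0460%. At 17 months the HET libraries thus spanned nearly the whole range of the 12 libraries.

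Over the 36 pairs of members, Pearson correlations across the 12 libraries ran from 0.857 (S100a8 and Mmp9) to 0.994 (Ngp and Ltf) at 3 months, with a median of 0.956. At 17 months they ran from 0.866 (Camp and Mmp9) to 0.998 (S100a8 and S100a9), with a median of 0.982. The permutation p adjusted over the 72 pairs and ages was at most 0.000550 for Pearson's r and 0.00106 for Spearman's rho. Ngp and Ltf had a rho of 0.993 at both ages, and r was 0.989 at 3 months and 0.992 at 17 months without the 2 libraries farthest from the median of Ngp (permutation p = 1e-05 for r and rho at both ages, the smallest that 100000 permutations can give). S100a8 and S100a9 had a rho of 0.951 (permutation p = 3e-05) at 3 months and 0.965 (permutation p = 2e-05) at 17 months, and r without the 2 extreme libraries was 0.974 and 0.997. These points share the library and the scaling of TPM, by which each transcript is a share of its library.

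The co-variation was as close within genotypes as across them. Using deviations from the genotype means, the median r was 0.960 at 3 months and 0.984 at 17 months. Without the 2 extreme libraries of each pair the medians were 0.933 and 0.972. The RPKM tables (reads per kilobase and M alignments), a separate quantification by the authors, gave medians of 0.965 and 0.981, and each member's TPM and RPKM correlated across libraries with r from 0.990 for Mmp9 at 3 months to 0.999.

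Mmp9, the gelatinase gene, varied least. It stood at 14.8, 16.5, 17.8 and 9.77 TPM in HOM libraries, at 11.6, 9.68, 14.2 and 21.2 TPM in HET libraries and at 15.7, 12.4, 9.91 and 8.16 TPM in WT libraries at 3 months. Its highest library exceeded its lowest 2.60-fold, against 12.9-fold for Camp. At 17 months Mmp9 spanned 6.16-fold, Ltf 77.3-fold, Camp 76.1-fold and S100a9 22.3-fold. All 5 pairs with r below 0.9 at 3 months, and all 5 at 17 months, involved Mmp9, while pairs without it had r of at least 0.931 and 0.961. A straight line of Mmp9 on S100a9 on the TPM scale met 0 TPM of S100a9 at 6.72 TPM of Mmp9 at 3 months and 7.04 TPM at 17 months. The same line for Mmp8, the other metalloproteinase, met it at 1.87 and 0.504 TPM.

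**Figure D3:**
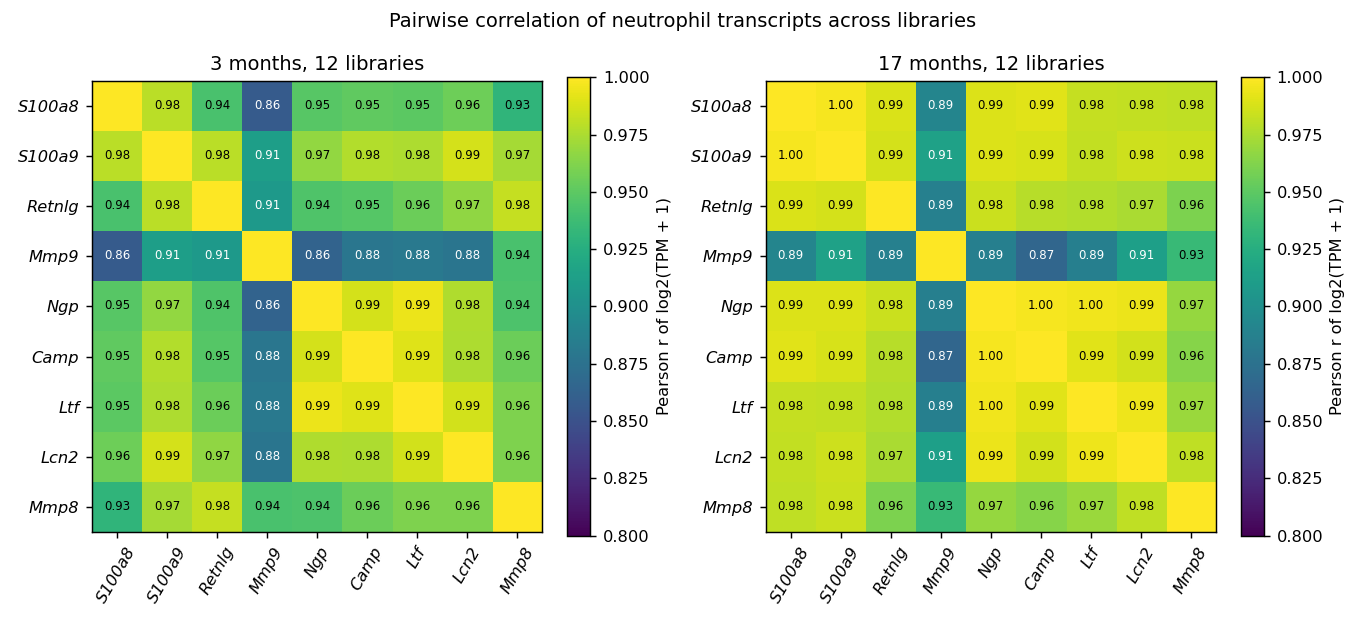
Pearson r of log2(TPM + 1) between each pair of neutrophil transcripts over the 12 libraries of each age, with the mature genes first and the granule genes after them. Mmp9 forms the row and column of lower values, down to 0.857 with S100a8 at 3 months.

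The mean of the granule genes spread somewhat more between libraries than that of the mature genes, largely through Mmp9. Per library, the mean log2(TPM + 1) of the 5 granule genes varied 1.29 times as much as that of the 4 mature genes at 3 months and 1.23 times as much at 17 months (ratio of SDs over 12 libraries), and the 2 means correlated with r of 0.979 and 0.990. Without Mmp9 in the mature mean, an alternative added after seeing the data, the ratios were 1.10 and 1.07. Nor did the order hold gene by gene, since the SD of log2(TPM + 1) of granule Mmp8 was 0.58 and 1.23 at the 2 ages, below those of mature S100a8 (0.85 and 1.52), S100a9 (0.86 and 1.46) and Retnlg (0.82 and 1.70). The difference of the 2 means at 3 months was -1.68 ± 0.12 in HOM, -1.89 ± 0.36 in HET and -2.02 ± 0.18 in WT libraries (SD, n = 4 each). At 17 months it was -1.71 ± 0.23 in HOM, -1.71 ± 0.28 in HET and -2.22 ± 0.40 in WT libraries. These values describe the chosen genes and were given no test.

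In terms of genotype, the mean log2 change between HOM and WT libraries was 1.29 for granule genes and 0.95 for mature genes at 3 months, and 2.12 and 1.61 at 17 months. Between HET and WT libraries it was 0.91 and 0.77 at 3 months, and 1.72 and 1.21 at 17 months. Between HOM and HET libraries at 17 months the 2 groups of genes had the same mean change, 0.39. With Mmp8 counted among the mature genes instead, the granule mean for HOM against WT at 3 months was 1.46 and the mature mean 0.88. Without Mmp9 the mature mean for HOM against WT was 1.16 at 3 months and 1.78 at 17 months, and the difference between granule and mature means turned slightly negative for HET against WT at 3 months (-0.037) and for HOM against HET at 17 months (-0.044).

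**Figure D4:**
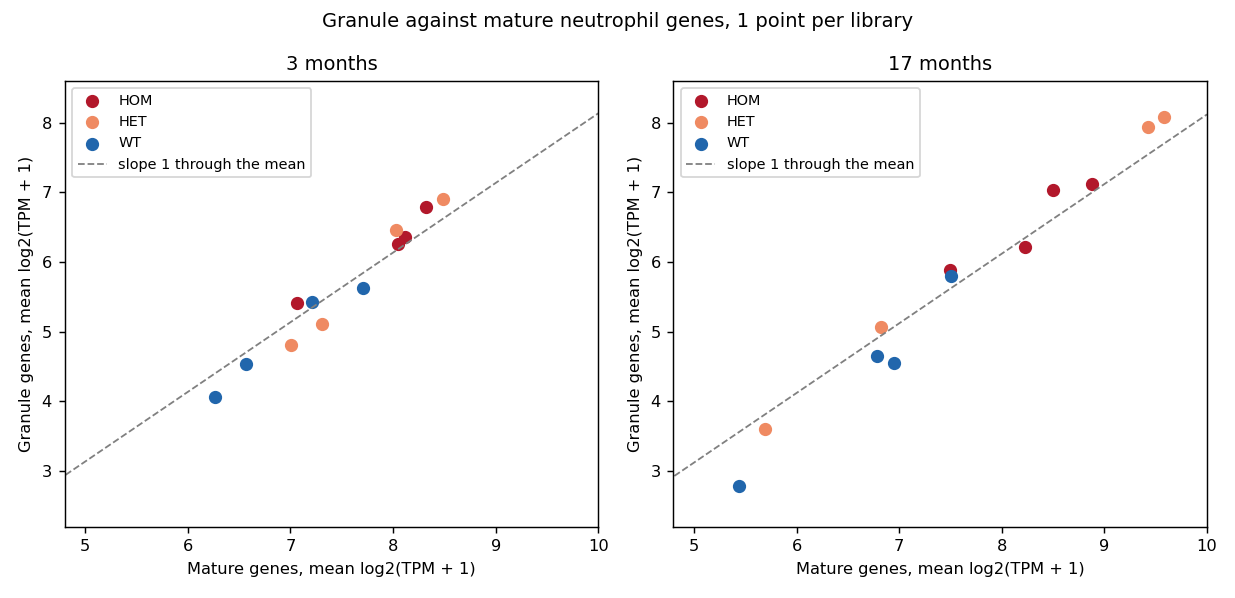
Mean log2(TPM + 1) of the 5 granule genes against that of the 4 mature genes, 1 point per library, at 3 and 17 months; the dashed line has slope 1 through the mean. The points rise more steeply than the line, and the HET pair with shares of 1.26% and 1.45% sits at the upper right at 17 months.

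Camp per 100 TPM of S100a9 sets a granule gene against a mature one in each library. At 3 months it was 11.8, 13.7, 13.7 and 11.0 in HOM libraries, 6.80, 7.51, 14.4 and 15.2 in HET libraries and 7.68, 10.3, 7.18 and 8.40 in WT libraries. The HOM and WT libraries did not overlap, and the HET libraries split as they did for the level of each gene. Ngp per 100 TPM of S100a9 did overlap at 3 months, with 15.0 to 19.9 in HOM, 9.66 to 18.2 in HET and 11.2 to 15.1 in WT libraries. How often ratios of other genes separate was not counted. At 17 months Camp per 100 TPM of S100a9 was 15.7, 12.8, 10.7 and 16.9 in HOM libraries and 17.1, 7.53, 11.9 and 18.0 in HET libraries. In WT libraries it was 5.23, 8.53, 15.6 and 11.0, and the groups overlapped. Retnlg per 100 TPM of S100a9 ran the other way at 3 months, from 8.44 to 10.4 in HOM, 9.03 to 10.3 in HET and 9.57 to 11.96 in WT libraries. At 17 months it was highest on average in HOM libraries, as for Camp, with 9.76 to 13.4 in HOM, 5.80 to 10.1 in HET and 5.23 to 10.7 in WT libraries, and the groups overlapped.

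The ratio of the calprotectin subunits was steady within an age. S100a9 over S100a8 in TPM lay between 0.825 and 1.16 in the 12 libraries at 3 months and between 1.17 and 1.53 at 17 months. In RPKM the ratio lay between 1.20 and 1.66 at 3 months and between 1.69 and 2.16 at 17 months. Ngp over Camp lay between 1.12 and 1.81 TPM per TPM at 3 months and between 0.877 and 1.28 at 17 months. The ranges of the 2 ages did not overlap for the calprotectin pair, and whether that reflects age or the separate making of the tables cannot be told apart.

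Other neutrophil genes were read as lists by stage. The primary granule and precursor list, which holds the granule proteases Elane, Prtn3 and Ctsg and the peroxidase Mpo, had 6 of 8 genes tested at 3 months. None was called for HOM against WT, but 6 of 6 were higher at an unadjusted p under 0.05, against 2.57% of all genes, with a median change of 1.28 against -0.10 over all genes. Their summed level over 8 genes was 15.2 to 38.2 TPM in HOM, 3.99 to 43.9 TPM in HET and 3.69 to 7.55 TPM in WT libraries. Every HOM library thus lay above every WT library. Among single genes that held for 1.78%, and no such share was computed for list sums. Elane, neutrophil elastase, averaged 5.66 ± 3.07 TPM in HOM, 5.03 ± 5.64 TPM in HET and 0.769 ± 0.592 TPM in WT libraries at 3 months (SD, n = 4 each), a HOM against WT change of 1.86 (SE 0.64, adjusted p = 0.168). Prtn3, proteinase 3, averaged 4.94 ± 2.46 TPM in HOM, 4.92 ± 4.48 TPM in HET and 1.01 ± 0.17 TPM in WT libraries, a HOM against WT change of 1.48 (SE 0.50, adjusted p = 0.164).

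At 17 months 0 of 7 primary genes tested were called between HOM and WT libraries, against 0.712% of all genes. None passed an unadjusted p under 0.05, against 18.6% of all genes, and the median change was 0.75. The primary sum ran from 12.1 to 38.4 TPM in HOM, from 0.564 to 129 TPM in HET and from 1.35 to 47.1 TPM in WT libraries. Elane, Prtn3 and Mpo were each listed at 0 in at least 1 HET library and reached 33.6, 33.7 and 27.8 TPM in another. Between HET and WT libraries 1 of 6 was higher at an unadjusted p under 0.05 at 3 months (2.35% of all genes) and 0 of 7 at 17 months (2.75% of all genes).

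Of the other specific granule and late precursor genes, 7 of 9 were tested, and Ly6g and Olfm4 were not analysed here. For HOM against WT none was called, while 5 of 7 were higher at an unadjusted p under 0.05 at 3 months (2.57% of all genes) and 7 of 7 at 17 months (13% of all genes), with median changes of 1.12 and 1.52. Chil3, a chitinase-like lectin whose reads could be split with its close copy Chil4, averaged 42.7 ± 17.4 TPM in HOM, 37.8 ± 21.4 TPM in HET and 15.5 ± 8.08 TPM in WT libraries at 3 months. At 17 months Chil3 averaged 42.4 ± 2.58 TPM in HOM, 66.9 ± 65.3 TPM in HET and 11.96 ± 4.996 TPM in WT libraries. Pglyrp1, a peptidoglycan-binding granule protein, stood at 33.2 ± 10.1 TPM in HOM, 39.1 ± 18.6 TPM in HET and 27.0 ± 9.52 TPM in WT libraries at 3 months, with a HOM against WT change of 0.31 (SE 0.37, adjusted p = 0.675). At 17 months Pglyrp1 ran from 69.6 to 181 TPM in HOM, from 20.3 to 111 TPM in HET and from 23.7 to 58.2 TPM in WT libraries. HOM and WT did not overlap, as for 9.5% of all genes, and the change was 1.35 (SE 0.50, limma adjusted p = 0.167).

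The list of mature receptors and effectors had 12 of 12 genes tested. For HOM against WT at 3 months, 2 of 12 were higher and 1 of 12 lower at an unadjusted p under 0.05, against 2.57% and 17.1% of all genes, none was called, and the median change was 0.31. Csf3r, the receptor for the growth factor that drives neutrophil production, is also expressed by microglia, and it averaged 357 ± 16.8 TPM in HOM, 356 ± 49.2 TPM in HET and 408 ± 6.99 TPM in WT libraries at 3 months. G0s2, a lipase inhibitor abundant in neutrophils, averaged 24.1 ± 11.96 TPM in HOM, 18.4 ± 11.1 TPM in HET and 12.4 ± 4.02 TPM in WT libraries. At 17 months 9 of 12 were higher in HOM libraries at an unadjusted p under 0.05, against 13% of all genes, with a median change of 1.14, again with none called.

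The genes outside the members whose pattern was most like theirs were found by correlating each of 11427 genes with the mean of the members, each scaled, over the 12 libraries of each age. The 8 with the highest lower value of the 2 correlations were Cd177 (0.987), Wfdc21 (0.977), Chil3 (0.964), Anxa1 (0.958), Itgb2l (0.952), Fcnb (0.941), Rab44 (0.934) and Mapk13 (0.901). Cd177 encodes a neutrophil surface glycoprotein, Itgb2l an integrin subunit, Fcnb a lectin and Anxa1 the protein annexin A1. Cd177 itself ranged from 2.28 to 15.6 TPM at 3 months and from 0.588 to 34.1 TPM at 17 months. Cd177, Wfdc21, Chil3, Anxa1, Itgb2l and Fcnb also stand in the neutrophil lists above, and Rab44 and Mapk13 do not.

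Markers of other cells were summed in each library and set against S100a9. Over 22 tests, 11 lists at each of 2 ages, the other specific granule list followed S100a9 with r = 0.975 at 3 months and 0.968 at 17 months (rho 0.965 and 0.951, permutation p = 1e-05 for all 4, adjusted p = 0.00011), and with r = 0.991 and 0.950 without the 2 libraries farthest from the median. The primary list followed with r = 0.867 and 0.926 (rho 0.846 and 0.902, adjusted permutation p at most 0.00471), and r was 0.828 and 0.905 without the 2 extreme libraries. The sum of mature receptors and effectors had r = -0.098 at 3 months and 0.474 at 17 months (rho 0.126 and 0.545, adjusted permutation p at least 0.141), and r was -0.24 and 0.372 without the 2 extreme libraries. Most of that sum was Csf3r, which microglia also express. Csf3r averaged 374 TPM over the libraries of 3 months and 279 TPM over those of 17 months. The group means of the sum were 435 to 464 TPM and 318 to 429 TPM. Its r therefore says little about the other genes of that list. Microglial markers, 10 of 10 tested, ran the other way at 3 months with r = -0.82 (rho -0.86, permutation p = 0.00142 and 0.00077, adjusted p = 0.00521 and 0.00423) and -0.77 without the 2 extreme libraries. At 17 months their r was -0.53 and their rho -0.48 (permutation p = 0.0751 and 0.119, adjusted p = 0.15 and 0.218), with an r of -0.59 without the 2 extreme libraries. Their sum was 31399 to 32782 TPM in HOM, 28814 to 34918 TPM in HET and 30586 to 34416 TPM in WT libraries at 3 months. At 17 months it was 17357 to 23322 TPM in HOM, 17443 to 25523 TPM in HET and 20846 to 24614 TPM in WT libraries. For HOM against WT at 17 months 1 of 10 microglial genes, Gpr34, was called lower, against 0.246% of all genes. Its change was -0.83 (SE 0.14, limma adjusted p = 0.0349). At an unadjusted p under 0.05, 3 of 10 microglial genes were lower, against 5.62% of all genes. Their part in the neutrophil result was not tested.

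Monocyte markers, another CD11b-bearing blood cell's, were measured beside the genotype result. All 7 passed the filter and none was at 0 in any library. Their sum was 84.6 to 262 TPM in HOM, 60.4 to 104 TPM in HET and 57.8 to 97.9 TPM in WT libraries at 3 months. At 17 months it was 134 to 957 TPM in HOM, 81.0 to 205 TPM in HET and 57.6 to 146 TPM in WT libraries. For HOM against WT, 3 of 7 were higher at an unadjusted p under 0.05 at 3 months (2.57% of all genes) and 5 of 7 at 17 months (13% of all genes), with none called. Against S100a9 their sum had r = 0.587 at 3 months and 0.538 at 17 months (permutation p = 0.0383 and 0.0656, adjusted p = 0.0937 and 0.144), and rho = 0.706 and 0.713 (permutation p = 0.0126 and 0.0122, adjusted p = 0.0307 each). Without the 2 extreme libraries r was 0.722 and 0.464. The monocyte list's part in the neutrophil result was not tested.

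Erythroid markers, a sign of blood left in the tissue, overlapped between genotypes at both ages. Their sum was 42.1 to 194 TPM in HOM, 38.8 to 564 TPM in HET and 66.1 to 1105 TPM in WT libraries at 3 months, and 123 to 2073 TPM in HOM, 36.1 to 360 TPM in HET and 48.2 to 699 TPM in WT libraries at 17 months. Their r with S100a9 was 0.202 at 3 months (permutation p = 0.531, adjusted p = 0.763) and 0.616 at 17 months (permutation p = 0.0325, adjusted p = 0.0893), and 0.267 and 0.535 without the 2 extreme libraries. Their rho was 0.182 and 0.573 (permutation p = 0.573 and 0.0556, adjusted p = 0.812 and 0.122). Using deviations from the genotype means, r was 0.525 and 0.705. The WT library with the most erythroid RNA at 3 months, 1105 TPM, had a median rank of 6 of 12 for the neutrophil transcripts. In HET libraries the erythroid sum was 104, 38.8, 564 and 188 TPM at 3 months. At 17 months it was 360, 36.1, 91.4 and 326 TPM. At each age it was higher in the HET pair with more neutrophil transcripts. The erythroid list's part in the neutrophil result was not tested. Eosinophil, basophil and mast cell markers, of which 1 of 8 passed the filter, followed S100a9 with r = 0.730 and 0.816 (permutation p = 0.0083 and 0.0011, adjusted p = 0.0262 and 0.0048) at sums of at most 16.7 TPM. Their rho was 0.755 and 0.832 (adjusted permutation p = 0.0204 and 0.0051), and r was 0.785 and 0.810 without the 2 extreme libraries. Lymphocyte, astrocyte, endothelial and border-associated macrophage sums had r between -0.17 and 0.23 with S100a9 at both ages, with adjusted permutation p of at least 0.763 for r and 0.728 for rho. Without the 2 extreme libraries the lymphocyte r was 0.628 at 3 months and 0.229 at 17 months, and the others lay between -0.17 and 0.31. Endothelial sums were 60.3 to 97.6 TPM in HOM, 73.6 to 414 TPM in HET and 108 to 323 TPM in WT libraries at 3 months, where 4 of 4 tested genes were lower in HOM than in WT at an unadjusted p under 0.05 (17.1% of all genes) and none was called. At 17 months they were 302 to 426 TPM in HOM, 120 to 196 TPM in HET and 214 to 276 TPM in WT libraries. There 2 of 4 were higher for HOM against WT at an unadjusted p under 0.05 (13% of all genes) with none called, and 3 of 4 (Cldn5, Ly6c1 and Pecam1) were called higher for HOM against HET (1.69% of all genes). Their part in the neutrophil result was not tested.

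**Figure D5:**
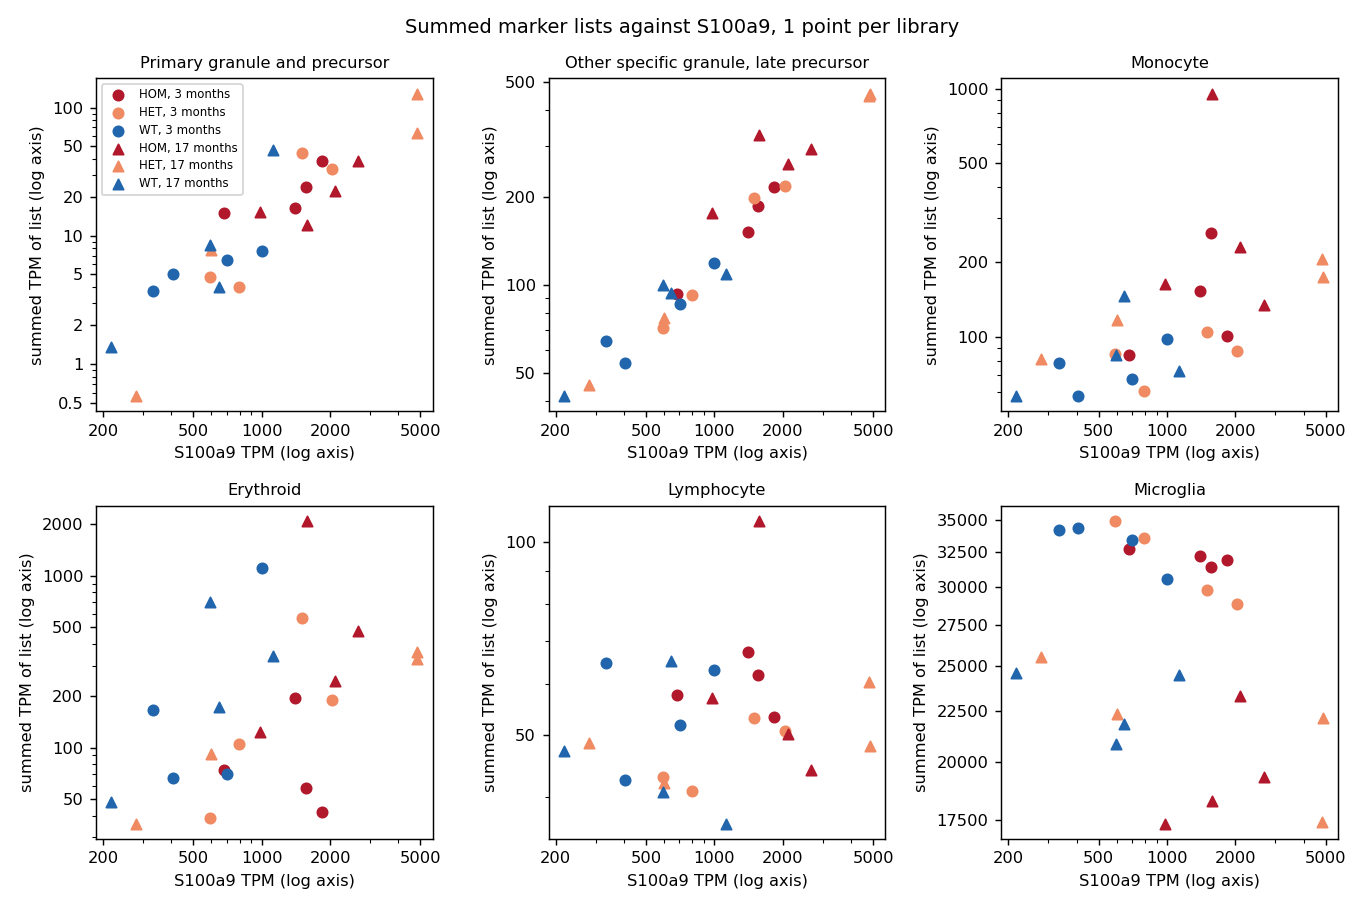
Summed TPM of 6 marker lists against S100a9 TPM in each library (log axes), with circles for 3 months and triangles for 17 months, colored by genotype. The other specific granule list follows S100a9 closely (r = 0.975 and 0.968). Erythroid sums follow it less closely (r = 0.202 at 3 months and 0.616 at 17 months), and lymphocyte sums scatter.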

How the data were processed

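CD11b-sorted cells of 24 mice were sequenced as stranded, single-end mRNA libraries, per the labels' protocols. The authors deposited TPM and, in separate tables, RPKM with the alignments of each library; no table holds counts. The submitters' processing notes name Salmon 0.8.2, TopHat2 2.1.1, Partek 7.17.0918 and DESeq2, with the mm10 build. Which tool made which table, and the annotation, are not given in the sources used here. Each deposited TPM column held 78.9% to 90.7% of what the unit sums to. Reads behind a TPM value are not known; from RPKM, exon length and alignments, Mmp8 rested on roughly 26.1 to 1311 alignments a library at 17 months and S100a9 on 571 to 32090.

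TPM columns were put into groups by the animal numbers of the RPKM headers, with hemi taken as HET. The numbers could not be tied to the labels' replicate numbers. The labels name no separate litters or cultures, so p-values measure the spread between these animals' libraries.

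Tests used limma 3.58.1 (R 4.3.3; moderated test with trend) on log2(TPM + 1), over genes averaging 1 TPM or more at that age, all 12 libraries in 1 fit, Benjamini-Hochberg adjusted over all genes, called under 0.05. A pseudocount of 1 understates changes of low genes. The fit was tested on simulated data. Interactions used 24 libraries. Correlations used 100000 permutations. Alternatives were a pseudocount of 0.1, no filter, a minimum of 5 TPM, RPKM, median centring, a sex term, only the 2 genotypes compared, limma array weights, and leaving out each library; leaving Mmp9 out of the mature mean was added after seeing the data. Promoters are RefSeq's (GRCm38.p6); gene coordinates are GENCODE's for mm10.

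All members are named; of other neutrophil genes, those called and the 2 highest by mean TPM per list; and the 8 most similar genes. Elane, Prtn3, Mpo and Ctsg are also cited as examples of their list; Gpr34, Cldn5, Ly6c1 and Pecam1 were named after their values were seen. The members and lists were chosen with earlier results of these data known.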

Additional observations from a re-analysis of the deposited data

Results flagged for a closer look

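In groups of 4 libraries, a few values stood apart from the other 3 by the gap to the nearest over the range. Of 162 groups of values examined, 7 did so, and chance flags about 1 in 20. HOM library 3 was the deepest of its group at 3 months with 33.8 M alignments, and HOM library 3 at 17 months with 46.4 M. WT library 1 was the shallowest at 17 months with 16.7 M, and was also lowest for 8 of the 9 neutrophil transcripts.

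The erythroid sum was 1105 TPM in WT library 1 at 3 months, and the monocyte sum was 957 TPM in HOM library 3 at 17 months, which had a median rank of 5 of 12 for the neutrophil transcripts. The sum of mature receptors and effectors was 455 TPM in HET library 1 at 17 months, which had a median rank of 1 for the neutrophil transcripts. The primary granule sum was 47.1 TPM in WT library 3 at 17 months, which had a median rank of 6 and was the highest WT library for 8 of the 9 members.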

How the results depend on the processing

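No member was called in any comparison when any 1 library was left out. Array weights, which down-weight variable libraries, called 6 of 9 for HOM against WT at 3 months, 3 of 9 for HOM against HET at 3 months and 3 of 9 for HOM against WT at 17 months; they also called 1836, 3074 and 1858 genes in all. A fit of only the HOM and WT genotypes at 17 months called 1, Mmp9 (adjusted p = 0.0403), and its count of all genes called is not given here. The cause was not tested. The median r at 3 months was 0.965 in RPKM.

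With sex as a term, HOM against HET at 17 months was reversed for Ngp (-0.68), Camp (-0.75), Ltf (-0.47), Lcn2 (-0.62), Mmp8 (-0.58), S100a8 (-0.62), S100a9 (-0.63), Retnlg (-0.34) and Mmp9 (-0.060). Leaving out 1 library gave the same contrast ranges of -0.47 to 1.20 for Ngp, -0.65 to 1.11 for Camp, -0.35 to 1.16 for Ltf, -0.39 to 1.06 for Lcn2, -0.45 to 0.68 for Mmp8, -0.51 to 0.98 for S100a8, -0.49 to 0.88 for S100a9, -0.22 to 1.39 for Retnlg and -0.12 to 0.67 for Mmp9, the lowest each without HET library 2. HOM against HET at 3 months ranged from -0.044 to 0.57 for Lcn2, -0.086 to 0.34 for Mmp8, -0.061 to 0.54 for S100a9, -0.16 to 0.45 for Retnlg and -0.075 to 0.28 for Mmp9, the lowest each without HET library 2 of that age. The HOM interaction ranged from -0.32 to 0.95 for Camp, -0.18 to 0.67 for S100a8 and -0.030 to 0.76 for S100a9, the lowest each without WT library 1 at 17 months. The HET interaction ranged from -0.22 to 1.54 for Camp, -0.36 to 1.13 for S100a8, -0.23 to 1.14 for S100a9 and -0.16 to 1.45 for Retnlg, the lowest without HET library 1 or 4 at 17 months. Every change against WT within an age stayed above 0 under all of these alternatives.

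Counts of all genes called moved far more. Without 1 library they ranged from 2 to 118 (HOM against WT), 3 to 467 (HET against WT) and 3 to 66 (HOM against HET) at 3 months, and from 1 to 368, 0 to 239 and 104 to 246 at 17 months. Under the other alternatives they ranged from 2 to 1836, 1 to 3507 and 1 to 3074 at 3 months, and from 5 to 1858, 0 to 659 and 45 to 1136 at 17 months. For the interactions they ranged from 1 to 667 (HOM) and 19 to 332 (HET) without 1 library, and from 26 to 556 and 82 to 194 otherwise. Centring each library on its median also moved their direction, with 22 of 26 genes higher for HOM against WT at 3 months (2 of 7 without it), 2 of 5 for HET against WT (1 of 5), 4 of 5 for HOM against HET (2 of 3), 204 of 609 for HOM against WT at 17 months (55 of 84), 153 of 247 for HOM against HET (199 of 219), and 87 of 423 and 21 of 125 in the interactions (23 of 29 and 23 of 79), while no member changed sign. No paired analysis was possible because the table columns carry animal numbers and not the replicate numbers of the labels.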
